A study of Mus musculus with 2 samples.

Results

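The genes described here are 35 genes of sugar breakdown, chosen by name from the 43346 Ensembl gene entries of each deposited gene table. They comprise 4 carriers of glucose and lactate, 17 glycolytic enzymes, 2 lactate dehydrogenases, 4 genes of pyruvate dehydrogenase and its kinases, 3 PFKFB enzymes and 5 pentose phosphate enzymes. They were listed by pathway, with no threshold on a measured value. Total RNA-seq was made from common myeloid progenitors, bone marrow cells from which the granulocyte, monocyte, platelet and red cell lines descend. They were primary cells of adult male C57BL/6J mice aged 5 to 6 weeks, with no treatment or genetic change named in the labels. The series holds 1 group of 2 libraries, biological replicates 1 and 2, each made with ScriptSeq from 100 ng of RNA after removal of ribosomal RNA. Their listed size ranges differed, 200 to 1000 for replicate 1 and 187 to 1606 for replicate 2. The part of this in differences between the libraries was not tested. Because the labels give a single donor for the pair, their spread describes these 2 samples only and may be technical, and no test between conditions was possible.

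Glycolysis splits glucose into pyruvate in the cytosol and yields ATP, and lactate dehydrogenase turns pyruvate into lactate when it is not burned in mitochondria. The pentose phosphate pathway branches off at glucose 6-phosphate and supplies NADPH and ribose for nucleotides. Many of the steps have several isozymes, encoded by separate genes or by alternative exons and starts of 1 gene, which differ in tissue and in regulation.

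The sequences shown first are those by which the forms of pyruvate kinase, the last glycolytic enzyme, are told apart. Pkm (ENSMUSG00000032294.12, chromosome 9 from 59656368 to 59679375, plus strand, GRCm38) has a pair of mutually exclusive coding exons. The M1 form is known from muscle and brain, and the M2 form from dividing cells. Each exon, read from the transcripts of GENCODE M21, is 167 bases long. They are identical at 103 positions and differ at 64, and capitals mark the positions that differ.
Pkm M1 exon, chr9:59675029-59675195: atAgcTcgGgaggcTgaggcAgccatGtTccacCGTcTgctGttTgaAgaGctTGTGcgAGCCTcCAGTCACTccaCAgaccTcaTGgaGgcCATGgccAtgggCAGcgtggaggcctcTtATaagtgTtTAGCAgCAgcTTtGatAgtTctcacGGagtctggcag
Pkm M2 exon, chr9:59675568-59675734: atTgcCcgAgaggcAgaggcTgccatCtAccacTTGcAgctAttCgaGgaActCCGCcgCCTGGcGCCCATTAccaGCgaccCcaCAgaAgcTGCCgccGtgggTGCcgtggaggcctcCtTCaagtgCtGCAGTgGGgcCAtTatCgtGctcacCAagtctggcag

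Pklr (ENSMUSG00000041237.8, chromosome 3 from 89136142 to 89146784, plus strand) encodes the other pyruvate kinase. Its upstream start gives the red cell form and its downstream start the liver form. The 250 bases before each start are given from RefSeq on GRCm38.p6, with GATAA, a motif that GATA factors bind, in capitals where it or its reverse complement TTATC occurred. RefSeq places the downstream start further along the gene than the model Pklr-202 used below does. The upstream window held GATAA once and the downstream window not at all, while 23.1% of 16522 protein-coding genes with a window held it on either strand.
Pklr upstream promoter, chr3:89135892-89136141: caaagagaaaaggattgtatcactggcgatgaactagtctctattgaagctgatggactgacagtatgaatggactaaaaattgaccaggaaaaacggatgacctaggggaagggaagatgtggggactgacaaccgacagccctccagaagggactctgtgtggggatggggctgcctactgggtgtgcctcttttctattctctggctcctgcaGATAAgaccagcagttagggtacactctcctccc
Pklr downstream promoter, chr3:89136373-89136622: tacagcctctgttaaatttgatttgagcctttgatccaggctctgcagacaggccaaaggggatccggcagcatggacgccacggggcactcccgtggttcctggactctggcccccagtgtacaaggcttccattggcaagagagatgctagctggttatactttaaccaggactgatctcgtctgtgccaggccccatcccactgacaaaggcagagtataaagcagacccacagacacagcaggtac

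Replicate 1 held 28158803 expected counts over Ensembl genes and replicate 2 held 84041054, 2.98 times as many. Levels are in TPM, the abundance of a gene's transcripts as a share of all transcripts, scaled to the same total in each library, which corrects for transcript length and lets genes be compared. Only 20.1% and 21.5% of all TPM belonged to nuclear protein-coding genes in replicates 1 and 2, so the TPM of each gene is low beside values from polyadenylated RNA. Progenitor genes were present, with Cd34 at 125 and 121 TPM, Kit at 33.5 and 39.8 TPM and Mpo at 314 and 399 TPM in replicates 1 and 2. The B cell genes Pax5 and Ebf1 and the markers of T cells and stroma had 0 counts in both libraries. The globin gene Hba-a1 stood at 6.39 and 4.02 TPM, and Alas2, the haem synthesis enzyme of maturing red cells, at 0.09 and 0.20 TPM. The RNA came from many cells at once, so fewer cells with a transcript and less of it per cell cannot be told apart.

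Most of the pathway was transcribed. Of the 35 genes, 31 had 1 TPM or more in each library, against 42.5% of 21461 nuclear protein-coding genes. The median of the 35 was 10.7 TPM in replicate 1 and 13.7 TPM in replicate 2, against 6.71 and 7.77 TPM for the protein-coding genes that reached 1 TPM. Of the 35, 24 stood at or above that second median in each library. Levels were uneven, and Gapdh, Ldha, Pkm, Tkt and Aldoa held 48.4% and 47.2% of the summed TPM of the 35. Together the 35 genes held 0.466% of protein-coding TPM in replicate 1 and 0.501% in replicate 2.

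**Figure D1:**
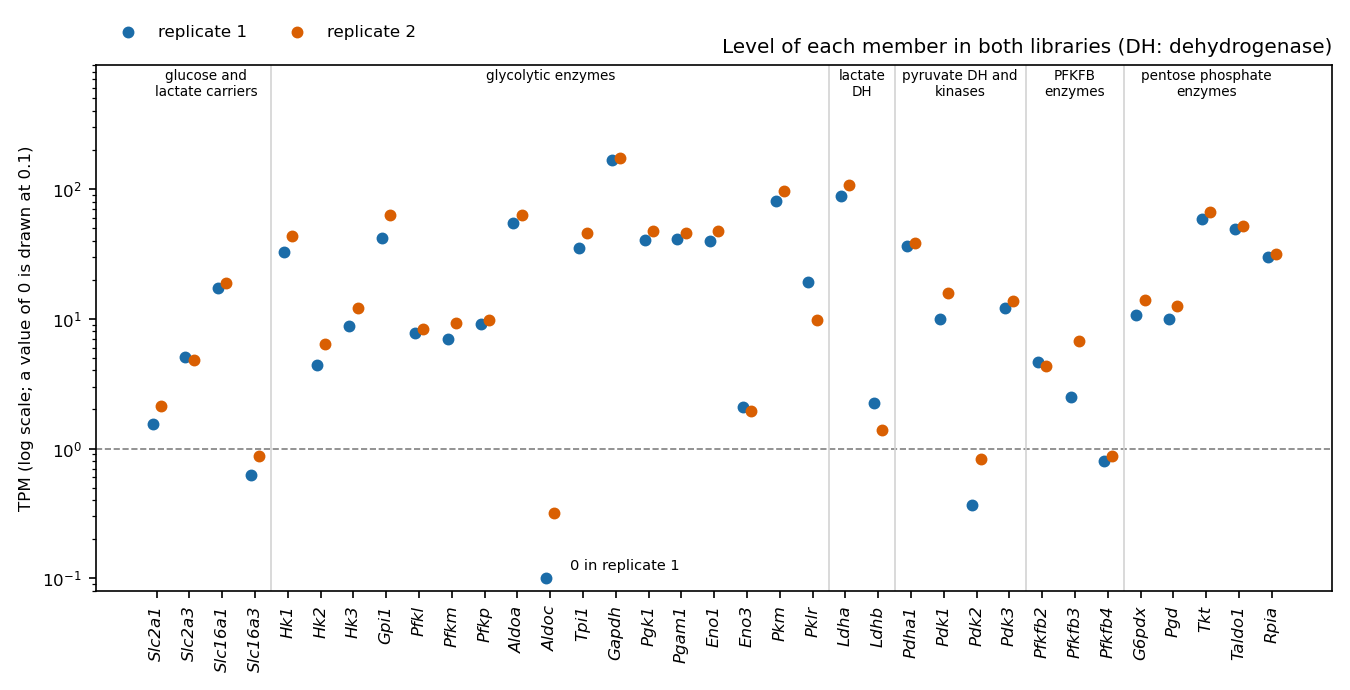
TPM of each of the 35 genes, on a log axis, in replicates 1 and 2, ordered by role, with a dashed line at 1 TPM. Aldoc, Slc16a3, Pdk2 and Pfkfb4 lie under the line in both libraries, and Gapdh is highest at 169 and 175 TPM.

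The carriers were one of the lower groups, with a median of 3.32 TPM in replicate 1 and 3.47 TPM in replicate 2. Slc2a1, the glucose carrier GLUT1, stood at 1.54 and 2.14 TPM, and Slc2a3, the high-affinity carrier GLUT3, at 5.09 and 4.80 TPM. Slc2a3 therefore held 76.8% and 69.2% of the TPM of the pair. Retained intron models took 32.2% and 33.1% of Slc2a3 counts, and over protein-coding models alone its share of the pair was 70.4% and 65.1%. Slc16a1, the lactate carrier MCT1, stood at 17.2 and 18.9 TPM. Slc16a3, the lactate carrier MCT4 of strongly glycolytic cells, stood at 0.62 and 0.88 TPM, from 36 and 409 counts. The 36 counts of replicate 1 were assigned to a model of 975 bases, and those of replicate 2 to longer models. The ratio of Slc16a1 over Slc16a3 was 27.7 and 21.5 in TPM but 153 and 38 in CPM, counts scaled to the library total, so its size depends on this assignment. Slc16a7, a related carrier gene outside the chosen set, stood above Slc16a3, at 2.46 and 2.49 TPM from 405 and 1426 counts. Slc16a3 was therefore not the second of these carriers by level, and family shares given here leave Slc16a7 out.

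Hexokinase, which traps glucose in the cell as glucose 6-phosphate, was represented by 3 genes in a stable order. Hk1, the broadly expressed isozyme, stood at 32.6 and 43.4 TPM in replicates 1 and 2. Hk3, an isozyme known from myeloid cells, stood at 8.86 and 12.0 TPM, above Hk2, the insulin-regulated isozyme of muscle and fat, at 4.42 and 6.45 TPM. Hk1 held 71.0% and 70.2% of hexokinase TPM, and Hk3 held 19.3% and 19.4%. The log2 ratio of Hk1 over Hk3 TPM was 1.87 ± 0.018, and that of Hk3 over Hk2 was 0.95 ± 0.075 (SD, n = 2), so both steps of this order exceeded the spread between libraries. Hkdc1, a further hexokinase gene, had 0 counts in both libraries. Gpi1, the isomerase that forms fructose 6-phosphate, stood at 42.3 and 62.6 TPM, a wider gap between libraries than most enzymes had.

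Phosphofructokinase, which commits the sugar to glycolysis, had the lowest summed level of the glycolytic steps, 23.9 TPM in replicate 1 and 27.5 TPM in replicate 2. Its 3 genes were close together. Pfkl, the liver type, stood at 7.82 and 8.34 TPM, Pfkm, the muscle type, at 6.94 and 9.32 TPM, and Pfkp, the platelet type, at 9.10 and 9.83 TPM. By TPM, Pfkp led with 38.1% and 35.8% of the family. Retained intron models held 39.8% and 40.6% of Pfkp TPM. Over protein-coding models alone, Pfkp fell behind the other genes, with 27.8% and 19.6% of the family, while Pfkl held 36.9% and 37.9% and Pfkm held 35.3% and 42.6%. Pfkp and Pfkm also overlap genes on the other strand with more counts, Pitrm1 with 5800 and 15677 and Senp1 with 3617 and 10580. Whether counting used the strand was not given in the sources used here, so no order among the 3 is drawn.

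The middle of the pathway was carried by single leading genes. Aldoa, the aldolase that cleaves fructose bisphosphate in most tissues, stood at 54.5 and 62.9 TPM. Aldoc, the aldolase of brain, had 0 counts in replicate 1 and 115 in replicate 2, or 0.32 TPM. A count of 0 allows up to 3 counts, 0.107 CPM in replicate 1, so Aldoc was at least 12.8-fold higher in replicate 2 than that limit. Such limits cover counting error only, since the reads carry no molecular identifiers. Tpi1, which interconverts the triose phosphates, stood at 34.97 and 45.47 TPM.

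Gapdh, the dehydrogenase of glyceraldehyde 3-phosphate, was the highest of the 35 at 169 and 175 TPM in replicates 1 and 2. Much of this value came from a short model: Gapdh-206, classed as a retained intron and 565 bases long, held 58.7% and 40.7% of Gapdh TPM. It took 29.4% and 21.8% of the counts. Summed over protein-coding models, Gapdh stood at 60.2 and 66.9 TPM, behind Ldha at 88.1 and 103 TPM and Pkm at 81.3 and 96.2 TPM. Gapdh also has 166 near-identical copies in the annotation, which together held counts equal to 9.51% and 11.7% of its own.

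The last steps of the triose phase lay close together. Pgk1, the first ATP-forming enzyme of the pathway, stood at 40.3 and 47.1 TPM, and Pgam1, the phosphoglycerate mutase of most tissues, at 41.1 and 45.6 TPM. Eno1, the ubiquitous enolase, stood at 40.1 and 47.2 TPM, and Eno3, the enolase of muscle, at 2.08 and 1.96 TPM. Eno1 thus held 95.1% and 96.0% of the TPM of the pair. The levels of Pgk1, Pgam1 and Eno1 did not differ beyond their spread, at 43.7 ± 4.80, 43.3 ± 3.19 and 43.7 ± 5.01 TPM (SD, n = 2). All 3 have close copies, so their reads could be split between genes. Pgk1-rs7 had 981 and 3457 counts, Eno1b had 833 and 3082, and Pgam1-ps2 had 200.8 and 560.

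**Figure D2:**
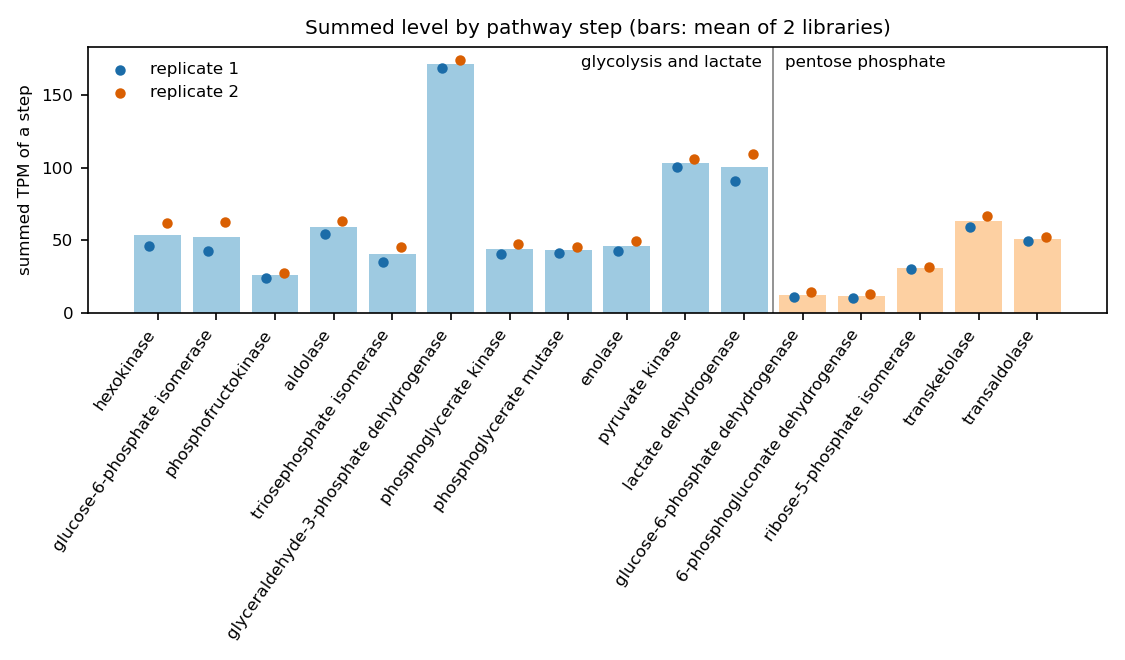
Summed TPM of the genes of each step along glycolysis with lactate formation (blue) and the pentose phosphate pathway (orange); bars are means of 2 libraries and points are the libraries. The phosphofructokinase sum, 23.9 and 27.5 TPM, is the lowest of the glycolytic steps, and the Gapdh sum, 169 and 175 TPM, is the highest.

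Pyruvate kinase RNA was mostly of the Pkm gene and, within it, of the M2 form. Pkm stood at 81.3 and 96.2 TPM in replicates 1 and 2. Its M2 model, Pkm-201, stood at 68.6 and 91.7 TPM, and its M1 model, Pkm-202, at 12.7 and 4.53 TPM. M2 therefore made up 84.4% and 95.3% of both forms, averaging 89.8 ± 7.73% (SD, n = 2). It led in both libraries, by 5.40 times and 20.2 times. The deposited posterior SD of the split equalled 1.15% of Pkm counts in replicate 1 and 0.408% in replicate 2, and covers the assignment of reads within a library, not the variation between libraries. The counts of the gene were close at 488 and 497 CPM, so the difference between libraries lay in the split and not in the total. Both models are 2432 bases long in the deposited tables, so the split is not altered by length correction. Between their ends the models differ by the exons printed above. Any difference at the ends in the counted release was not analysed here.

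Pklr showed a difference of the same kind, and larger. Its counts were 44.4 and 46.3 CPM, a log2 ratio of replicate 2 over replicate 1 of 0.07, but its TPM was 19.3 in replicate 1 and 9.79 in replicate 2. Pklr-201, the model that begins at the upstream start of the red cell form, had 194 and 3524 counts, with posterior SDs of 51.0 and 77.0. Pklr-202, which begins at the downstream start, had 913 and 308 counts, with posterior SDs of 49.1 and 72.4. Of the counts of these full-length models, Pklr-201 thus had 17.5% in replicate 1 and 92.0% in replicate 2, the reverse order. The starts lie 430 bases apart in the annotation and the models also differ by 190 bases at their 3′ ends, so reads at either end could set this split. The model Pklr-205 is a processed transcript of only 345 bases, and it held 71.8% of Pklr TPM in replicate 1 and 22.6% in replicate 2, from 142 and 62.7 counts. Without it, the protein-coding models of Pklr summed to 5.45 and 7.59 TPM, and Pkm held 93.7% and 92.7% of pyruvate kinase TPM.

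**Figure D3:**
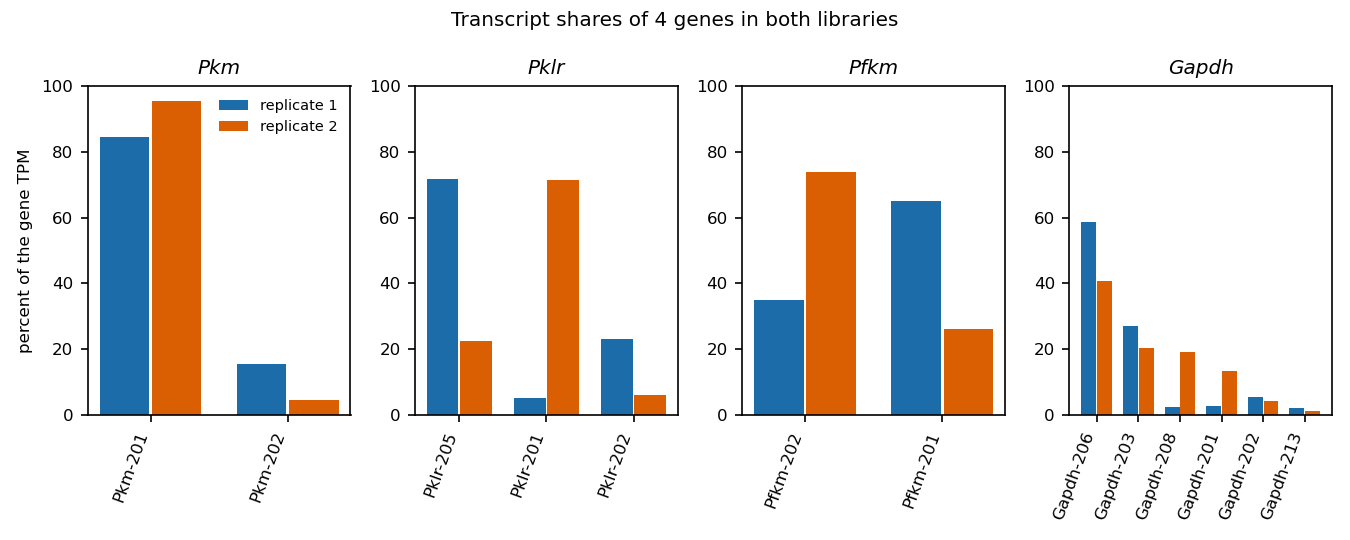
Share of the gene's TPM, in percent, held by each transcript model with a mean share of at least 1%, for Pkm, Pklr, Pfkm and Gapdh in replicates 1 and 2. Pkm-201 (M2) leads in both libraries, while the leading model of Pklr and of Pfkm differs between them.

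Lactate dehydrogenase was almost wholly of the A type. Ldha, the subunit that favours lactate formation, stood at 88.8 and 108 TPM in replicates 1 and 2, while Ldhb, the heart-type subunit, stood at 2.24 and 1.39 TPM. Ldha held 97.5% and 98.7% of the TPM of the pair, 39.6 and 77.8 times the level of Ldhb. Ldhb rested on 186 and 299 counts. Its log2 count ratio of replicate 2 over replicate 1 was -0.89, which moved the Ldha to Ldhb ratio more than Ldha did, with its log2 count ratio of 0.03. The testis form Ldhc had 0 counts in both libraries.

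The promoter of Ldha is shown because it held more copies of ACGTG, the core bound by hypoxia-inducible factors, than any other window of the 34 genes with one in the table. The 5 matches on both strands merge into 3 stretches, in capitals, since each CACGTG holds ACGTG on both strands. A match is a description of the letters and not a measured binding site.
Ldha promoter, chr7:46845554-46845803, plus strand, RefSeq on GRCm38.p6: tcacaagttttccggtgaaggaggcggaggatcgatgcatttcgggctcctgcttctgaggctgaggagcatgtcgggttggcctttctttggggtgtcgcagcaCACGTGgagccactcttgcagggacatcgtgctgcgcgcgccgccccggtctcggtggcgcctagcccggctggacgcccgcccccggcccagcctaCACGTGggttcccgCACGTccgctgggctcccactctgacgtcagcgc

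Conversion of pyruvate to acetyl-CoA in mitochondria is made by pyruvate dehydrogenase, which its kinases switch off. Pdha1, the subunit that the kinases phosphorylate, stood at 36.5 and 38.7 TPM. Pdk1, a kinase known as a target of hypoxia-inducible factors, stood at 9.97 and 15.8 TPM. Pdk3 stood at 12.1 and 13.7 TPM, and Pdk2 at 0.37 and 0.83 TPM from 57 and 330 counts. Pdk3 led the kinases in replicate 1 with 53.8% of their TPM, and Pdk1 led in replicate 2 with 52.0%, so by gene TPM neither stood above the other beyond the spread. Over protein-coding models alone Pdk3 led in both, with 66.2% and 64.5%. Without length correction Pdk1 held the larger share of the kinases in both, 61.0% and 63.2% of their CPM, so the leader depends on the scale. Pdk4, the kinase induced by fasting, had 0 counts in both libraries.

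PFKFB enzymes make and remove a fructose bisphosphate, which activates phosphofructokinase. Pfkfb2, the heart type, stood at 4.64 and 4.30 TPM. Pfkfb3, the inducible form with high kinase activity, stood at 2.50 and 6.70 TPM, although its counts were close at 29.1 and 32.5 CPM. Its mean model length in the deposited tables was 4508 bases in replicate 1 and 2295 in replicate 2. Retained intron models contributed 0% and 31.8% of its TPM. Pfkfb4 stood at 0.80 and 0.88 TPM. By gene TPM, Pfkfb2 led in replicate 1 with 58.4% of the family and Pfkfb3 in replicate 2 with 56.4%, but over protein-coding models Pfkfb3 led in both, with 45.0% and 66.9%. The leading model of Pfkfb2 is classed as subject to nonsense-mediated decay and held 38.9% and 40.3% of its TPM. It is 768 bases long and had 12.1% and 10.4% of the counts, of which other models had more. Pfkfb2 also overlaps Yod1 on the other strand, which had 1008 and 2649 counts against 626 and 1840 for Pfkfb2.

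The 5 pentose phosphate genes had a median of 30.2 TPM in replicate 1 and 31.8 TPM in replicate 2. Of the oxidative branch, G6pdx, the entry enzyme that yields NADPH, stood at 10.7 and 14.0 TPM, and Pgd, the next NADPH-forming enzyme, at 10 and 12.6 TPM. The non-oxidative branch exchanges pentoses with glycolytic sugars. Of it, Tkt, transketolase, stood at 59.3 and 66.6 TPM, and Taldo1, transaldolase, at 49.4 and 52.3 TPM. Rpia, the isomerase that yields ribose 5-phosphate, stood at 30.2 and 31.8 TPM. Tkt, Taldo1 and Rpia each exceeded G6pdx and Pgd in each library, and Tkt exceeded G6pdx by 5.53 and 4.75 times. This order did not extend to every enzyme of the branches: Rpe, the epimerase of the non-oxidative branch, stood at 7.15 and 8.64 TPM, below G6pdx and Pgd, and Pgls, the lactonase between those enzymes, at 24.3 and 29.1 TPM, above them. G6pdx overlaps Ikbkg on the other strand, which had 1746 and 4368 counts against 1983 and 6361 for G6pdx. Tkt alone, at 63.0 ± 5.18 TPM, and Taldo1, at 50.8 ± 2.02 TPM (SD, n = 2), stood at the level of the aldolase and hexokinase steps, which summed to 58.8 ± 6.17 and 53.9 ± 11.3 TPM.

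**Figure D4:**
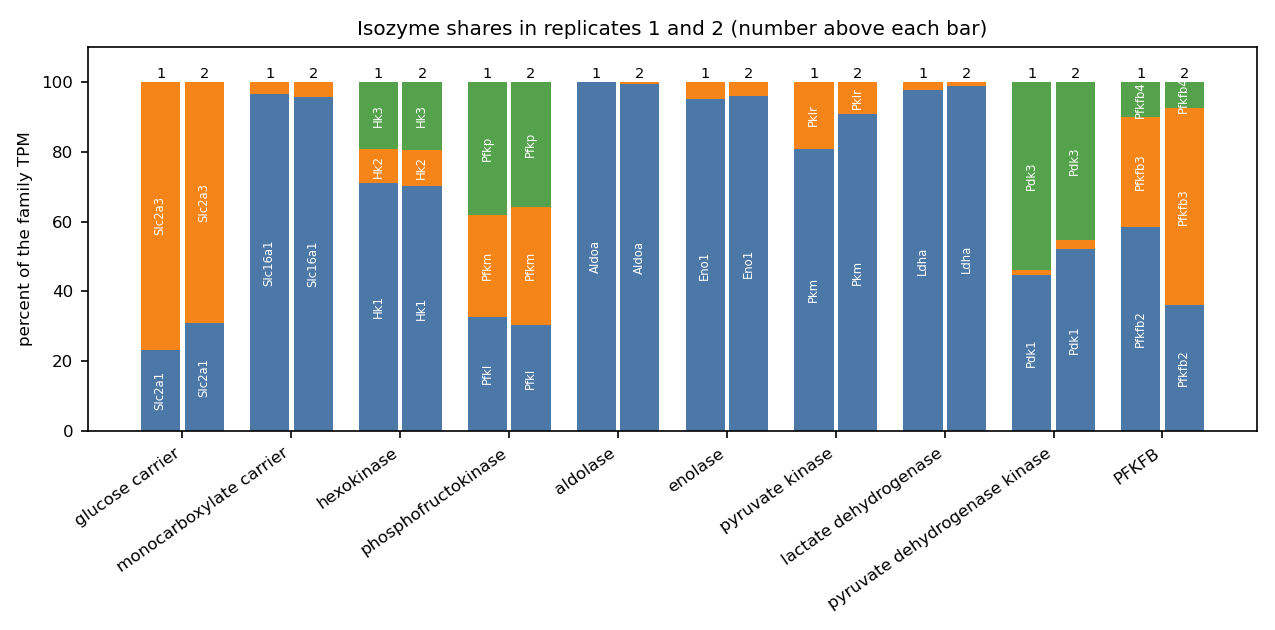
Share of the summed TPM of each family, in percent, held by each gene in replicate 1 (left bar) and replicate 2 (right bar). Families hold the chosen genes only, so Slc16a7 is left out. Hk1, Aldoa, Eno1, Pkm, Ldha, Slc2a3, Slc16a1 and Pfkp lead in both libraries, while the leader of the pyruvate dehydrogenase kinases and of the PFKFB enzymes differs.

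Of 10 families with more than 1 gene, the same gene led by TPM in both libraries in 8. At the level of transcripts, 32 genes had at least 100 counts in each library, and the same model led in both in 27, against 82.1% of 9860 protein-coding genes so tested. Of the 29 with more than 1 model, 24 kept their leading model, against 76% of protein-coding genes. The 5 that did not were Eno3, Hk1, Pfkfb3, Pfkm and Pklr. For Eno3, all reads went to a different coding model in each library. For Pfkm, Pfkm-201 held 65.1% of TPM in replicate 1 and Pfkm-202 held 73.9% in replicate 2. For Hk1, 4 coding models shared the gene, with none above 28.2% of its TPM.

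Between the libraries the pathway was steady once depth was scaled. Of the 35 genes, 2 differed by at least 2-fold in scaled counts, Slc16a3 and Aldoc, against 20.8% of 15102 genes and 14.8% of 12443 nuclear protein-coding genes with a mean count of at least 10. Both were among the lowest of the 35, and the part of a low level in their differences was not tested. None of the 28 with a mean count of at least 1000 differed by 2-fold, against 30 of 7006 protein-coding genes at that depth (0.428%). At that depth the count was therefore near the background. Slc16a3 had a log2 ratio of replicate 2 over replicate 1 of 1.92, from 1.28 and 4.87 CPM, and was followed by Pdk2 at 0.96 and Ldhb at -0.89. Within 0.25 on the log2 scale lay 27 of the 35, or 77.1%, against 48.8% of protein-coding genes. Counts of at least 1000 were more frequent among the 35 than among the 12443, and the part of depth in this closeness was not tested. As TPM ratios, with a pseudocount of 0.1, Aldoc and Pfkfb3 passed 2-fold, 2 of the 35 against 13% of protein-coding genes. The median log2 count ratio of the 35 was 0.01, against 0.02 for protein-coding genes. By TPM, in contrast, 30 of 35 were higher in replicate 2, as were 72.5% of protein-coding genes of at least 1 TPM, so most protein-coding genes shared the higher TPM of replicate 2.

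**Figure D5:**
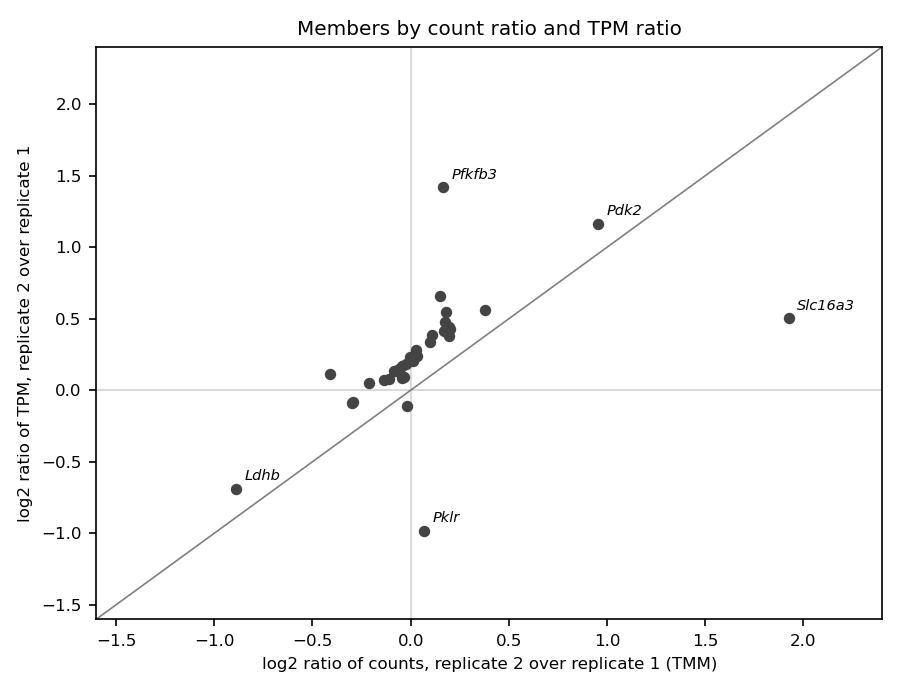
Log2 ratio of replicate 2 over replicate 1 for 34 genes (Aldoc, with 0 counts in replicate 1, is left out), by scaled counts on the horizontal axis and by TPM on the vertical axis; the line marks equal ratios. Most points lie above the line near 0, and Pfkfb3, Pklr and Slc16a3 lie farthest from it.

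The other genes of the pathway were read from a list of 45. Of these, 21 reached 1 TPM in both libraries, near the background of 42.5% of 21461 nuclear protein-coding genes. A further 16 had 0 counts in both, for which no share over all genes was taken. These 16 include isozymes of other tissues, the liver carrier Slc2a2, the muscle mutase Pgam2, the testis enzymes Pgk2, Gapdhs and Pdha2, and the transketolase-like genes Tktl1 and Tktl2. Genes of glucose synthesis were uneven. Fbp1 stood at 1.39 and 1.24 TPM, and Fbp2, Pck1 and G6pc had 0 counts in both libraries. The mitochondrial Pck2 stood at 9.21 and 9.04 TPM, and G6pc3, a broadly expressed glucose-6-phosphatase, at 9.42 and 11.24 TPM. The pyruvate dehydrogenase complex was present throughout, with Dld at 31.2 and 34.7 TPM, Pdhb at 20.9 and 26.3 TPM, Dlat at 7.78 and 11.04 TPM and Pdhx at 4.48 and 8.23 TPM. The mitochondrial pyruvate carrier genes Mpc1 and Mpc2 stood at 23.7 and 25.1 TPM and at 15.1 and 14.0 TPM. Bpgm, which makes the bisphosphoglycerate of red cells, stood at 5.67 and 5.86 TPM. Hif1a, the oxygen-regulated factor that many glycolytic genes respond to, stood at 10.9 and 13.3 TPM.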

How the data were processed

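Total RNA of common myeloid progenitors was sequenced in 2 libraries of 1 group, per the labels. The authors deposited, per library, a gene and a transcript table on mm10 with GENCODE release M4, as the readme files state. For the aligner, the quantifier and the use of strand, the sources used here give nothing. Expected counts, deposited by the authors, are estimated reads that need not be whole, and came with a posterior standard deviation. TPM, posterior mean TPM and FPKM were deposited by the authors in the same tables and are corrected for effective length, per the file headers.

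Names, classes, exons and coordinates of genes and models were taken from GENCODE M21 (GRCm38), matched by Ensembl ID, for 42462 of 43346 genes. The unmatched genes held 0.277% of counts in each library. Model classes and exons are thus those of a later release than the one counted. Counts were whole within 0.005 for 29 of the 35 genes, and reads of the other 6 were divided with other genes. Levels were read as TPM. Ratios of replicate 2 over replicate 1 used expected counts rounded to whole numbers, TMM scaling in edgeR 4.0.16 and a prior count of 0.5. The ratio code was run on simulated data with changes well above 2-fold. That run cannot show how well differences near 2-fold are measured in these libraries. Genes with a mean count under 10 were left out of ratios, but all 35 genes passed. Total counts were 28158803 and 84041054, and 0 counts allow up to 3. Near-identical copies were annotated genes aligned with BLAST 2.17.0 at 90% identity or more over 50% of a transcript. All 35 genes, the listed pathway genes and the copies with most counts could be named, and a few listed pathway and marker genes are not reported here. The genes and lists were set by pathway and not by a threshold, but with earlier results of these data known. Promoter windows were RefSeq's, and 34 of 35 genes had one. Alternatives were FPKM, posterior mean TPM, TPM rescaled to nuclear protein-coding genes, size factors of DESeq2 1.42.0, other filters and prior counts, and each library alone. Scripts ran in R 4.3.3 and Python 3.11.15 with pandas 2.3.3, numpy 2.4.6 and matplotlib 3.10.9.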

Additional observations from a re-analysis of the deposited data

How the results depend on the processing

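No paired analysis was possible because the series holds 1 group. With 2 libraries of 1 group, no value carries a test, and a value counted as moved when it left the mean by more than 1 SD between libraries. The median log2 ratio instead counted as moved at a change of 0.1 or more. A count was held to have moved when it changed by more than 1.5 times, and none did. Genes at 1 TPM in both libraries numbered 34 by FPKM and by rescaled TPM, against 31, and 26 or 28 genes shared a leading model, against 27, by expected counts and with a minimum of 1 count. The M2 share of Pkm was 89.8% by posterior mean TPM and by expected counts. FPKM and TPM rescaled to nuclear protein-coding genes are other units, and each gave higher medians. By FPKM the median of all 35 genes was 30.4, of carriers 8.51, of glycolytic enzymes 94.4, of lactate dehydrogenases 125, of pyruvate dehydrogenase and kinases 32.0, of PFKFB enzymes 8.37 and of pentose phosphate enzymes 77.7. By rescaled TPM the same medians were 58.5, 16.3, 182, 241, 61.6, 16.2 and 149. By posterior mean TPM the carrier median was 3.65. Counting protein-coding models alone was chosen after seeing the data. It gave medians of 2.67 TPM for carriers, 9.57 TPM for pyruvate dehydrogenase and kinases and 1.76 TPM for PFKFB enzymes, and the same leading gene in 9 of 10 families, with Pfkl and Pfkm leading phosphofructokinase in replicates 1 and 2. The median log2 ratio of the 35 genes was 0.22 as a TPM ratio, as it was for protein-coding genes. With a pseudocount of 0.1, that ratio put Aldoc and Pfkfb3 past 2-fold. Pdk2, whose TPM ratio was 2.24, passes only without the pseudocount. Without length correction the same gene led in both libraries in 10 of 10 families, with Pdk1, Pfkfb3 and Pfkl leading theirs. Each library alone gave a median of 10.7 to 13.7 TPM, 31 genes at 1 TPM, and an M2 share of 84.4% to 95.3%. A single library of 2 always lies within 1 SD of their mean, so these ranges say nothing about stability. With 1 library the counts of shared leaders have no value. Depth limits the genes of fewest counts, Aldoc, Slc16a3, Pdk2, Pfkfb4, Ldhb and Eno3.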

Other observations

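Of the 34 genes with a promoter window, 15, or 44.1%, held ACGTG on either strand in the 250 bases before a start, against 20.2% of 16522 protein-coding genes. CACGTG, which contains ACGTG, was held by 6, or 17.6%, against 7.81%. Genes with several starts had several windows, and GC content differed, with a median of 59.4% over windows of these genes and 56% over those of protein-coding genes. The part of starts and of GC content in these shares was not tested. GATAA was held by 8 of the 34, or 23.5%, against 23.1% of protein-coding genes.

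Of the 35 genes, 22 had a retained intron model in the annotation, and the share of all genes with one was not taken. The share of counts held by these models was largest in Gapdh, at 39.7% and 27.8% in replicates 1 and 2, in Slc2a3 and in Pfkp, at 30.0% and 30.7%. The median share over the 32 genes with at least 100 counts in each library was 0.0867% and 0.598%. Over protein-coding genes with as many counts it was 0% in each library. Genes without such a model entered these medians as 0%, and the part of annotation in this difference was not tested.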
